A study of Rattus norvegicus with 12 samples.

Results

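The genes described here are those of the cytosolic ribosomal proteins, the proteins that build the large and small subunits of the ribosome outside mitochondria. They were taken by gene symbol, as Rpl or Rps, including the stalk names Rplp, followed by a number and at most an a, x or l, which gave 79 of the 17312 symbols in each library. Of these, 48 belonged to the large and 31 to the small subunit. The rule left out kinases named after Rps6, provisional symbols and proteins under other names such as Rpsa and Fau. The data were RNA sequencing of cultured ventricular cardiomyocytes from newborn Wistar rats, in 12 libraries. Unstretched control cells received a control siRNA and no stretch, and stretched control cells the control siRNA and mechanical stretch. Unstretched Wnt5a siRNA cells received no stretch and an siRNA that targets the Wnt ligand Wnt5a, and stretched Wnt5a siRNA cells received both. Each group had 3 numbered libraries. How long and how far the cells were stretched is not stated in the labels. The labels give no genetic change in any group, and all groups had received an siRNA. Nothing in the labels says whether replicates came from different cultures, so the p-values cover only library-to-library spread, which could be technical.

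A ribosome holds 1 copy of nearly every ribosomal protein, and cells keep the mRNAs of these proteins at similar levels. In vertebrates most of these mRNAs start with a C followed by a run of pyrimidines, the 5′ terminal oligopyrimidine (5′TOP) tract, through which mTOR signalling and the RNA-binding protein LARP1 set their translation and stability. In heart muscle, more ribosomes are a known feature of hypertrophic growth. Ribosome assembly in the nucleolus needs a further set of factors that are not part of the finished particle and whose transcription depends on MYC.

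The starts of some of the genes are shown first, because the 5′TOP tract is a feature that the choice by symbol did not use. The sequences are from RefSeq, assembly GRCr8, which is not the build rn6 of the data, and each runs from 30 bases before the annotated start to base 25 from it. Capitals mark the pyrimidine tract (C and at least 4 further C or T) where it began at the annotated start. A tract that began within 5 bases of the start is marked too, if the base before it was not C or T. Most of the starts shown have a tract, a larger share than over all the genes, which is given below. Rpl38, Rps12 and Rpl41, whose values are given below, have no tract by this rule and are not shown. The first 4 shown have the tract exactly at the start. They are Rplp1, a stalk protein, at chr8:71290848-71290902 (minus strand), Rpl37a, of the large subunit, at chr9:81748061-81748115 (plus strand), Rpl31, also of the large subunit, at chr9:49143081-49143135 (plus strand), and Rps27, of the small subunit, at chr2:177964582-177964636 (minus strand).
Rplp1: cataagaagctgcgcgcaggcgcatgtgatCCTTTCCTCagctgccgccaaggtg
Rpl37a: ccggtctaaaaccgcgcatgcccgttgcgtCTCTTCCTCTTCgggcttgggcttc
Rpl31: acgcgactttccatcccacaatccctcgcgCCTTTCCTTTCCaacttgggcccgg
Rps27: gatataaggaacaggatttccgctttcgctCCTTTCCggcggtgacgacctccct
The next are 3 genes whose tract began shortly before the annotated start, followed by Rps27l, a paralog of Rps27 that is known as a p53 target, with no tract there. Rps23, at chr2:23814487-23814541 (plus strand), codes for a protein of the decoding centre. Rpl36a is at chrX:102059419-102059473 (plus strand), Rps4x, which has a copy on the Y chromosome in some mammals, is at chrX:71342897-71342951 (minus strand), and Rps27l is at chr8:76443628-76443682 (plus strand).
Rps23: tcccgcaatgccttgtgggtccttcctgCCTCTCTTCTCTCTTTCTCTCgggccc
Rpl36a: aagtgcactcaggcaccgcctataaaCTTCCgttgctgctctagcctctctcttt
Rps4x: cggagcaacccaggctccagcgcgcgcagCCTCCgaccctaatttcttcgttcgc
Rps27l: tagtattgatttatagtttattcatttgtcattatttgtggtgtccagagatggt
The table of starts held 64 windows for 63 of the 79 genes. A tract of C and at least 4 pyrimidines, read on the gene's own strand, lay exactly at the annotated start in 24 windows, 37.5%, against 2.63% of all 33469 windows and 2.50% of the 8392 windows of tested genes outside the list. With tracts added that began within 5 bases of the start, after a base other than C or T, the shares were 50.0%, 12.3% and 12.5%. Tracts at these positions that ran on from an earlier C or T were not counted, as in Rpl29, so these shares can be too low. The windows of Rps27 and Rps27l differ in this feature, and a link to their values in the libraries was not tested. A missing tract says only that these letters are not at the annotated start.

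The values are the FPKM of the authors, which are fragments scaled by transcript length and by the size of the library. This unit is per length, so levels of different genes can be set side by side. FPKM of short transcripts also depend on fragment length, and the part of that in these levels and in the comparisons was not tested. The 79 genes were 0.456% of the symbols. Their summed FPKM was 12.05%, 12.36% and 11.99% of the library sum in the unstretched control libraries. Of the 79 genes, 7 did not pass the filter (3 or more libraries at FPKM 1 or above), and 72 were tested, 44 of the large and 28 of the small subunit. Rplp2, Rps6 and Rps9 were listed at 0 in all 12 libraries. Rpl7a, Rpl8 and Rps19 stayed under 1 FPKM, with highest values of 0.204, 0.725 and 0.737. Every cell uses these 6 genes, so their low values may be failed estimates, and no statement is made on them. Rpl3l, the muscle paralog of Rpl3, was above 0 in 2 libraries and reached 0.232 FPKM. The treatment of reads with several matching genes is not given in the sources used here. Ribosomal protein genes have many near-identical pseudogenes, so every level given here is uncertain in that respect.

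The tested genes were among the most abundant transcripts. Their median level in the unstretched control was 993 FPKM, against 16.1 for all 10518 tested genes. Of the 95 tested genes at 1000 FPKM or more in that group, 35 were ribosomal protein genes. The highest mean over all libraries was that of Rpl41, the smallest protein of the large subunit, at 2997 ± 26.7 FPKM in the unstretched control (SD, n = 3). Rps29 (2732 ± 154), Rplp1 (2046 ± 38.1), Rps27 (1893 ± 75.6) and Rpl37a (1619 ± 32.3) completed the 5 with the highest overall mean. The other end was Rpl39l, a paralog of Rpl39 known from testis, at 0.445, 2.42 and 0.878 FPKM, while Rpl39 itself was at 1335, 1319 and 1358. Replicates were close in this group, as the median coefficient of variation of the 72 genes was 2.48%, against 7.18% over all tested genes.

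Before the comparisons, 2 features of the libraries need stating. The siRNA target Wnt5a ranged from 10.4 to 12.3 FPKM in unstretched control libraries and from 4.60 to 6.81 in the unstretched Wnt5a siRNA libraries, without overlap. Under stretch it was 5.66 to 8.22 with control siRNA and 5.56 to 6.22 with Wnt5a siRNA, which overlap, so that the transcript gives no check of the siRNA labels there. The library labelled stretched control 3 stood apart from replicates 1 and 2. Of the 72 genes, 66 were highest in it within its group, at a median of 1.15 times the mean of the other 2 libraries. In 61 of 72 it lay nearer to the mean of the stretched Wnt5a siRNA libraries than to the mean of stretched control 1 and 2, and in 33 it lay within the stretched Wnt5a siRNA range. Stretched Wnt5a siRNA 1 was the highest of its group in 71 of 72. Results that rest on stretched control 3 are given with and without it.

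Summed over the 79 genes, ribosomal protein mRNA was lowest in the unstretched control and highest in the stretched Wnt5a siRNA libraries, with the other 2 groups between. The sum was 71865 ± 839 FPKM in the unstretched control, 90018 ± 645 in the unstretched Wnt5a siRNA, 106336 ± 9468 in the stretched control and 121787 ± 9027 in the stretched Wnt5a siRNA libraries (SD, n = 3). As a share of the library sum it was 14.7%, 14.1% and 17.3% in the stretched control, 15.4%, 14.9% and 15.5% in the unstretched Wnt5a siRNA and 20.0%, 18.0% and 18.8% in the stretched Wnt5a siRNA libraries. The group means of the share were 12.1%, 15.3%, 15.3% and 19.0% in the order unstretched control, stretched control, unstretched Wnt5a siRNA, stretched Wnt5a siRNA. The stretched control range of the share includes every unstretched Wnt5a siRNA library, and no other ranges of 2 groups meet. That overlap rests on stretched control 3, at 17.3%. The other stretched control libraries, at 14.7% and 14.1%, lay below every unstretched Wnt5a siRNA library. The ratio of mean shares was 1.26 for stretch with control siRNA, 1.24 for stretch with Wnt5a siRNA, 1.26 for Wnt5a siRNA without stretch and 1.23 for Wnt5a siRNA with stretch. Without stretched control 3 the first of these ratios would be lower and the last higher. No p-value is given for these sums.

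**Figure D1:**
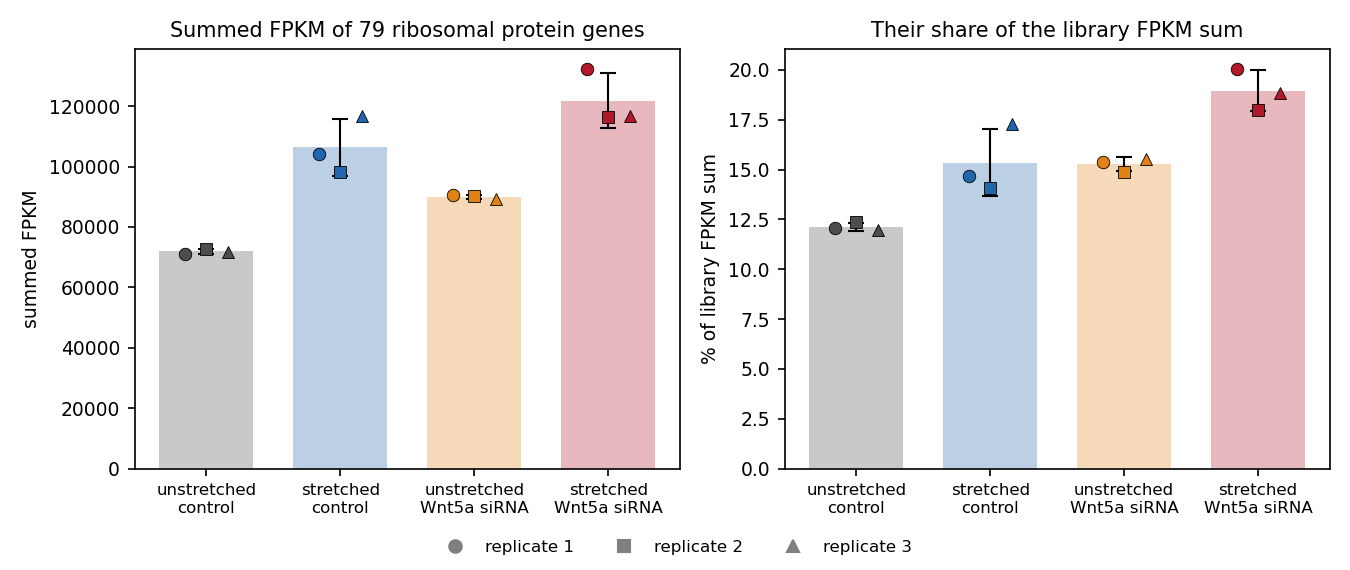
Summed FPKM of the 79 ribosomal protein genes (left axis panel, FPKM) and their share of each library's FPKM sum (right panel, %), by group. Bars are group means, error bars are SD (n = 3) and symbols are single libraries by replicate number. The unstretched control libraries are at 11.99% to 12.36% and the stretched Wnt5a siRNA libraries at 18.0% to 20.0%.

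The library sums themselves differed between groups. With control siRNA they ran from 588509 to 598628 FPKM without stretch and from 676014 to 709021 under stretch. With Wnt5a siRNA they were 575161 to 607276 and 619742 to 659933. Between unstretched and stretched control the sum rose by 101544 FPKM, and the 79 genes held 33.9% of that difference. Between unstretched and stretched Wnt5a siRNA they held 60.9% of 52154 FPKM. Stretched Wnt5a siRNA and unstretched control libraries differed by 49987 FPKM on average. Ribosomal protein genes made up 49922 FPKM of this, or 99.9%, and the summed FPKM of all other genes was at a ratio of 1.0001. These are net differences, in which rises and falls of other genes cancel, so other genes were not unchanged. From unstretched control to unstretched Wnt5a siRNA the library sum changed by −2167 FPKM and that of the 79 genes by 18153. From stretched control to stretched Wnt5a siRNA these were −51557 and 15452 FPKM, so a share of the difference has no meaning there. The large and small subunits moved together, since the sum of the large over that of the small subunit stayed between 1.40 and 1.46 in all 12 libraries.

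Because the sums differ, each comparison was made on 2 scales, on FPKM as deposited and with every library rescaled to the same sum. Changes are differences of log2(value + 1), with limma's test adjusted over all 10518 tested genes by Benjamini and Hochberg, and a gene is called at an adjusted p under 0.05. Rescaling shifted the median change of all tested genes from 0.01 to −0.19 for stretch with control siRNA and from −0.01 to −0.12 for stretch with Wnt5a siRNA. It moved it from 0.00 to 0.01 for Wnt5a siRNA without stretch and from 0.00 to 0.10 with stretch. The distance of the ribosomal protein genes from that median went from 0.55 to 0.52, 0.43 to 0.42, 0.32 to 0.32 and 0.20 to 0.21 in the same order. Rescaling gives all genes of a library 1 factor, so this distance could move only through the added 1. Its small moves are thus no check of the result. Quantile normalization of the FPKM, which can move the distance, gave 0.19, 0.18, 0.28 and 0.24.

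Stretch with control siRNA asks how cells given the control siRNA responded to load. Wnt5a itself was lower in the stretched control, at 5.66 to 8.22 FPKM against 10.4 to 12.3 in the unstretched control, without overlap. Ribosomal protein genes were higher after stretch almost throughout. On FPKM 71 of 72 were called higher and 0 lower, against 27.5% of all tested genes higher and 26.8% lower. On equal sums 62 were called higher and 0 lower, against 13.8% and 42.7% of all genes. The median log2 change was 0.56 on FPKM, a ratio of 1.47, and 0.33 on equal sums. It was 0.55 over the 44 large subunit and 0.57 over the 28 small subunit genes. Of 898 other tested genes with a mean of at least 100 FPKM, a background chosen after seeing the data, 49.6% were called higher on FPKM. In 71 of 72 genes every stretched control library lay above every unstretched one, as in 29.0% of all genes, with 29.0% below. Without stretched control 3 the counts were 71 on FPKM and 58 on equal sums, with medians of 0.50 and 0.25, and 71 of 72 were higher in that fit against 29.2% of all genes. After quantile normalization 43 of 72 were called higher, with a median of 0.22 and 69 of 72 above 0.

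The genes with the largest changes were Rps23, Rplp1, Rps12, Rps25 and Rpl38. Rps23 was at 806, 891 and 846 FPKM without stretch, and at 1309, 1239.5 and 1914 after it. The groups did not overlap, and replicate 3 was highest by far (log2 change 0.78 ± 0.13 SE, 95% interval 0.50 to 1.07, adjusted p = 3.5e-04 by limma). Rplp1, one of the stalk proteins that recruit elongation factors, was at 2042, 2085 and 2009.5 and then at 3439.9, 3001 and 3844 FPKM (0.74 ± 0.10, adjusted p = 5.6e-05). Its stalk partner Rplp0 was at 1234, 1281 and 1259 and at 1831, 1712 and 2003 FPKM (0.55 ± 0.08, adjusted p = 7.8e-05). Both stalk genes were thus above every unstretched control library after stretch. Rps12, which lies in the beak of the small subunit, changed by 0.73 ± 0.10, Rps25 by 0.71 ± 0.08 and Rpl38, a large subunit protein known for its part in the translation of Hox mRNAs, by 0.70 ± 0.09 on FPKM, with limma adjusted p of 7.4e-05, 2.6e-05 and 3.8e-05.

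The smallest changes were those of Rpl39l, Rps27l, Rps4x, Rps14 and Rpl24. Rpl39l, at 3.02, 1.55 and 0.424 FPKM in the stretched control, was the gene not called (0.22 ± 0.48, interval −0.83 to 1.26, adjusted p = 0.72). Rps27l went from 168, 164 and 185 to 199.8, 212 and 189 FPKM, and its interval was 0.06 to 0.37 around 0.22 (adjusted p = 0.025 by limma, 0.010 to 0.90 over the alternatives). On equal sums its change was −0.01, with an interval of −0.16 to 0.14, so its direction depends on the scale. Its call was also lost without unstretched control 1 or 2 or stretched control 1 or 2. Its paralog Rps27 went from 1978, 1869 and 1833 to 2343, 2519.8 and 2759.8 FPKM (0.42 ± 0.08, adjusted p = 0.0011). On equal sums Rps27 did not pass (0.19, adjusted p = 0.066), and after quantile normalization it was at −0.03. Rps4x (0.37), Rps14 (0.39) and Rpl24 (0.41) passed on FPKM and did not pass on equal sums, at 0.14, 0.16 and 0.19 with limma adjusted p of 0.19, 0.10 and 0.067.

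Other members with known single roles follow, beside the quartiles of 0.48 and 0.61 over the 72 changes. Rpl5 and Rpl11, which with 5S rRNA form the particle that binds Mdm2, were at 777 ± 21.2 and 464 ± 14.0 FPKM without and at 1045 ± 112 and 682 ± 32.8 with stretch (log2 changes 0.42 ± 0.08 and 0.55 ± 0.07). Rpl10, which completes the large subunit late in assembly, changed by 0.54 ± 0.08, Rpl3, of the peptidyl transferase centre, by 0.49 ± 0.08 and Rpl39, of the exit tunnel, by 0.60 ± 0.10. All 5 passed on FPKM, and Rpl5 did not on equal sums (0.19, adjusted p = 0.076 by limma). Of the 5 most abundant genes, Rpl41 rose by 0.54, Rps29 by 0.48 and Rpl37a by 0.60 on the log2 FPKM scale, between the 0.42 of Rps27 and the 0.74 of Rplp1.

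**Figure D2:**
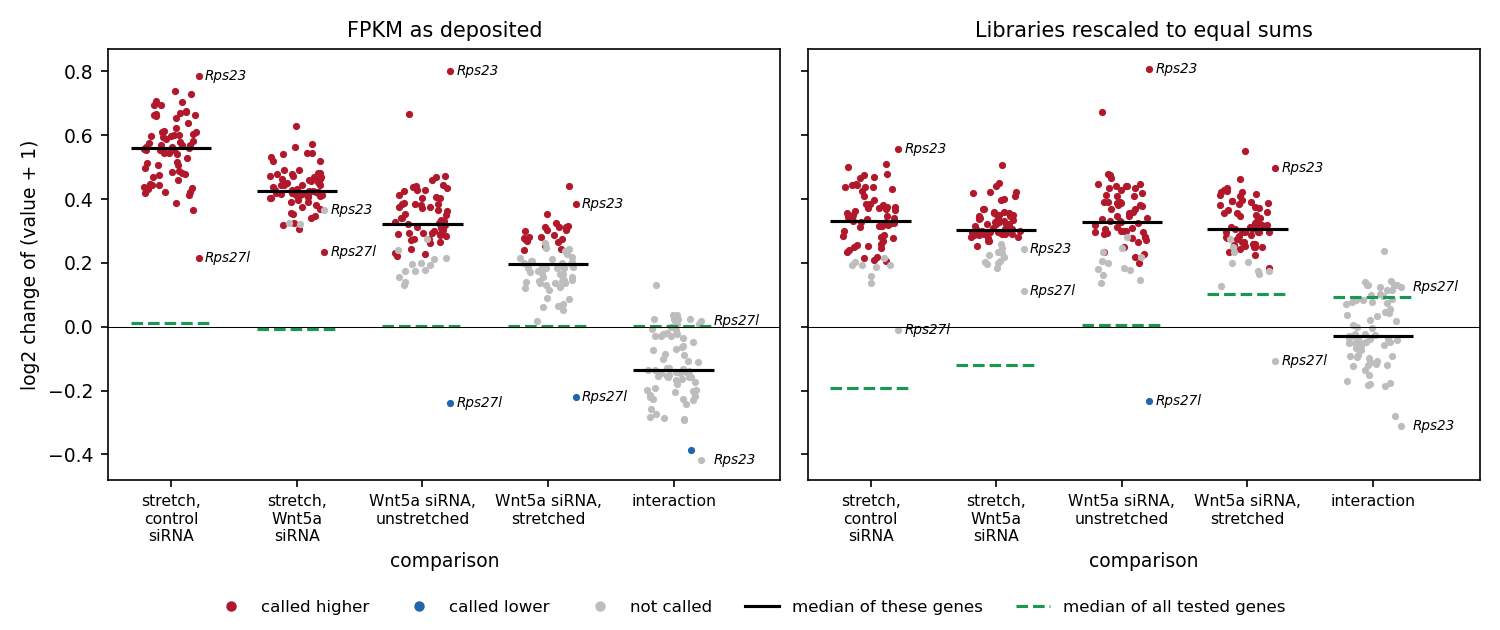
Log2 change of (value + 1) of 71 tested ribosomal protein genes (all but Rpl39l, whose interval is wide) in the 5 comparisons, on FPKM (left) and with equal library sums (right). Each point is a gene, coloured by its call, the black line is the median of these genes and the dashed green line that of all 10518 tested genes. In the first 4 comparisons of both panels the black line lies above the green one, and Rps27l is the lowest point.

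Stretch with Wnt5a siRNA gave the same direction in fewer genes past the test. On FPKM 68 of 72 were called higher and 0 lower, against 8.44% and 7.59% of all tested genes, and on equal sums 58 and 0, against 4.77% and 16.9%. The median change was 0.43 on FPKM, a ratio of 1.34, and 0.30 on equal sums. Among the 898 other abundant genes 19.2% were higher on FPKM. In 71 of 72 genes the stretched libraries lay above every unstretched one, as in 20.1% of all genes, with 20.6% below. The counts on equal sums rest on single libraries, as they were 13 without stretched Wnt5a siRNA 1, 36 without stretched Wnt5a siRNA 3 and 26, 30 and 38 without unstretched Wnt5a siRNA 1, 2 and 3. Quantile normalization gave 19 on FPKM, with a median of 0.18 and all 72 above 0.

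The 4 genes not called on FPKM were Rpl39l, Rps23, Rpl39 and Rps29. With Wnt5a siRNA, Rps23 was at 1467, 1491 and 1474 FPKM before stretch, and at 2069, 1807 and 1847 under it. These do not overlap, and the interval of the change was 0.08 to 0.65 (0.37 ± 0.13, adjusted p = 0.082 by limma). Without stretched control 3, which is not in this comparison and enters through the shared estimate of the spread, Rps23 passed, as it did with only the libraries compared (0.00195 to 0.76 over the alternatives). Rpl39 (0.32, interval 0.10 to 0.55, adjusted p = 0.052) and Rps29 (0.32, interval 0.09 to 0.55, adjusted p = 0.055) were close to the threshold of limma's test. Rps12 changed most among the called genes named here (0.63 ± 0.10), followed by Rplp1 (0.54 ± 0.10). Rps27l was at 149.6, 143 and 145 FPKM without and at 188, 161 and 167 with stretch. Its change of 0.23 (interval 0.08 to 0.39, adjusted p = 0.047 by limma, 0.022 to 0.26 over the alternatives) did not pass on equal sums, with the replicate block, with no filter, without a trend or without any one of 8 libraries, which were all but unstretched control 3, stretched control 2 and 3 and stretched Wnt5a siRNA 2. Rpl38 (0.32, adjusted p = 0.028) did not pass without any one of the unstretched Wnt5a siRNA libraries or stretched Wnt5a siRNA 1 or 2, nor on equal sums.

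Wnt5a siRNA without stretch addresses the response of unloaded cells to the siRNA. Most ribosomal protein genes were higher with the siRNA, and 1 was lower. Beside stretch in control cells the median change was lower on FPKM (0.32 and 0.56) and the same on equal sums (0.33 and 0.33), a difference that was not tested. On FPKM 57 of 72 were called higher and 1 lower, against 14.6% and 13.9% of all tested genes. On equal sums they were 58 and 1, against 14.8% and 13.3%. The median change was 0.32 on FPKM, a ratio of 1.25, and 0.33 on equal sums, and the count on equal sums was 37 without unstretched control 3. Of the 898 other abundant genes 20.3% were higher. The siRNA libraries lay above every control library in 70 of 72 genes and below in 1, against 24.7% of all genes each way. This comparison shares its unstretched control libraries with that of stretch in control cells, and the values of both are set side by side here without a test of their likeness.

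Rps23 again changed most. Its 3 siRNA libraries, 1467, 1491 and 1474 FPKM, lay close together and far above the 806, 891 and 846 of the control (0.80 ± 0.13, interval 0.51 to 1.09, adjusted p = 0.0016 by limma). Rpl36a, of the large subunit, was at 259, 271 and 247 FPKM in the control and at 421, 414 and 398 with the siRNA (0.67 ± 0.10, interval 0.44 to 0.89, adjusted p = 0.0012). Both stood above the other 70 genes, of which Rplp1 came next at 0.47. Rpl12 (0.44), of the stalk base, and Rpl13 (0.44) and Rpl6 (0.39), of the large subunit, passed with the smallest limma adjusted p after Rpl36a, at 0.0021, 0.0023 and 0.0025. The 14 genes not called included the abundant Rpl41 (0.21, adjusted p = 0.099), Rps29 (0.24, adjusted p = 0.10) and Rps27 (0.13, interval −0.05 to 0.31, adjusted p = 0.27).

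Rps27l was the gene called lower. All 3 siRNA libraries, at 149.6, 143 and 145 FPKM, were below the lowest control library at 164 (−0.24 ± 0.07, interval −0.40 to −0.08, adjusted p = 0.029 by limma, 0.013 to 0.12 over the alternatives). The call was lost without unstretched control 1 or 3 or any one of the unstretched Wnt5a siRNA libraries, with the same direction. On equal sums the change was −0.23 (adjusted p = 0.026). The ratio of Rps27 to Rps27l, which no scaling of a library can move, was 11.8, 11.4 and 9.92 in the unstretched control, 11.7, 11.9 and 14.6 in the stretched control, 14.0, 14.7 and 14.0 in the unstretched Wnt5a siRNA and 16.2, 17.3 and 15.8 in the stretched Wnt5a siRNA libraries. Each siRNA group lay above the control group without stretch and with it, and stretched control 3 lay within the unstretched Wnt5a siRNA range.

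**Figure D3:**
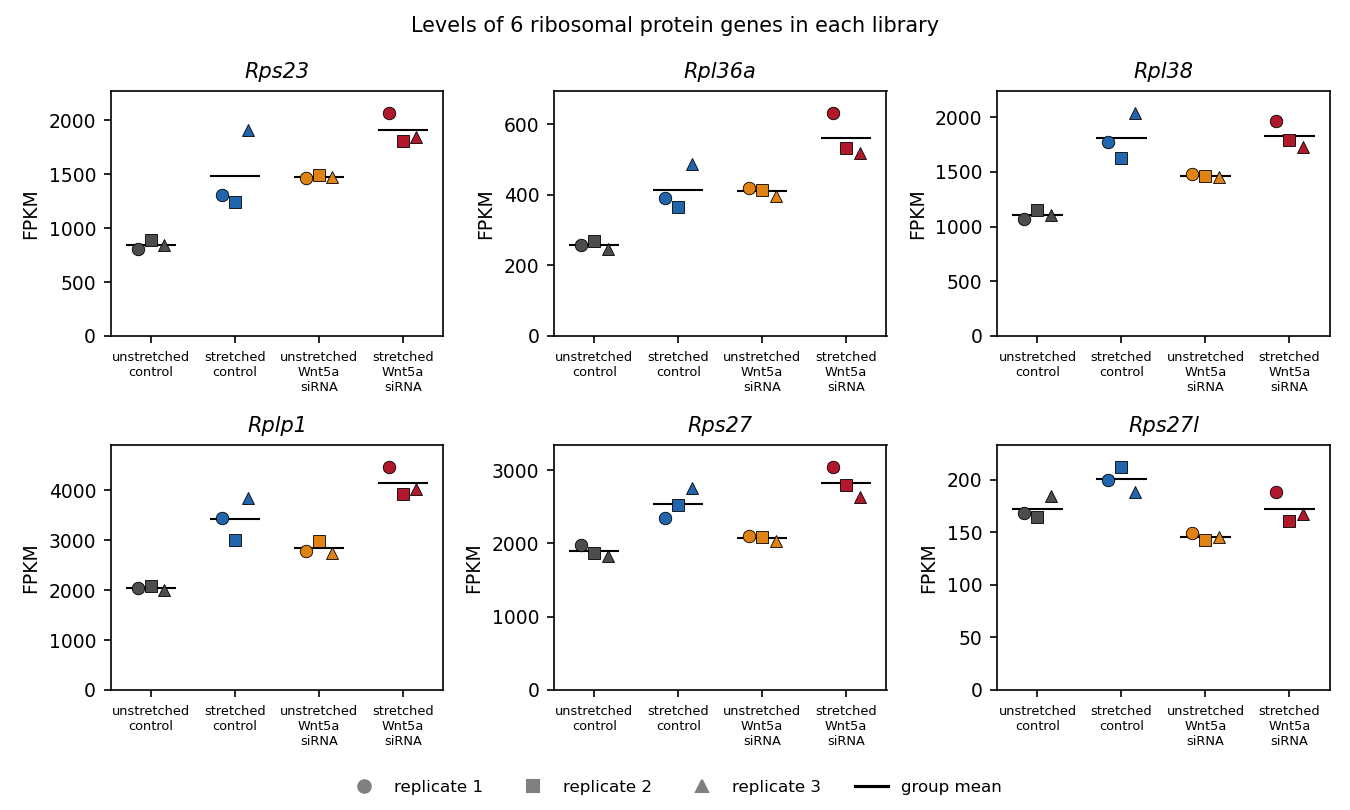
FPKM of Rps23, Rpl36a, Rpl38, Rplp1, Rps27 and Rps27l in each library, by group, with axes that start at 0. Symbols are libraries by replicate number and lines are group means. Rps27l is lower with Wnt5a siRNA at either stretch state (146 and 172 FPKM, against 172 and 200.2 with control siRNA), whereas Rps23 and Rpl36a are higher.

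Wnt5a siRNA with stretch asks whether the loaded cells differed by siRNA. The changes were the smallest of the 4 comparisons on FPKM and depended on single libraries. On FPKM 22 of 72 were called higher and 1 lower, against 13.2% and 14.2% of all tested genes. On equal sums 61 were called higher and 0 lower, against 20.8% and 7.71%. The median was 0.20 on FPKM, a ratio of 1.15, and 0.31 on equal sums. Of the 898 other abundant genes 7.02% were higher and 29.4% lower on FPKM. The stretched Wnt5a siRNA libraries lay above every stretched control library in 35 genes and below in 1, against 18.6% and 19.0% of all genes. Without stretched control 3 they lay above in 64, against 31.8% of all genes, and 56 were called higher, against 21.8% of all genes, with a median of 0.26. On equal sums that count was 70, against 29.8%. Leaving out other libraries lowered the FPKM count to 2 (stretched control 1), 4 (stretched control 2), 4 (stretched Wnt5a siRNA 1), 11 (stretched Wnt5a siRNA 3) and 14 (unstretched Wnt5a siRNA 1). On equal sums the count of 61 became 24 and 34 without stretched control 1 and 2, and 30 and 29 without stretched Wnt5a siRNA 1 and 3. With only the 6 libraries compared, 0 ribosomal protein genes were called on FPKM by limma and 11 on equal sums, while 47 had an unadjusted p under 0.05 on FPKM with all 12 libraries.

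Rpl28, Rpl36a, Rps18 and Rps21 were among the genes with the smallest adjusted p. Rpl36a was at 392, 365 and 488 FPKM in the stretched control and at 633, 533 and 519 in the stretched Wnt5a siRNA libraries, without overlap (0.44 ± 0.10, interval 0.22 to 0.66, adjusted p = 0.011 by limma). It did not pass without stretched control 1 or with only the libraries compared, within a range of 2.8e-04 to 0.061 over the alternatives. Rpl28, of the large subunit, was at 262, 246 and 281 and at 352, 315 and 313 FPKM (0.31 ± 0.07, adjusted p = 0.0075). Rps18 changed by 0.35 ± 0.09 and Rps21 by 0.32 ± 0.08, at limma adjusted p of 0.013 and 0.016. Rps18 lost its call without stretched control 1, and Rps21 without stretched control 1 or 2 or stretched Wnt5a siRNA 1. Rps23 passed narrowly (0.38 ± 0.13, adjusted p = 0.048, 1.1e-04 to 0.18 over the alternatives). It did so among leave-outs only without stretched control 3, whose 1914 FPKM lay within the siRNA range of 1807 to 2069. Rps27l was lower again (−0.22 ± 0.07, interval −0.38 to −0.06, adjusted p = 0.043, 0.013 to 0.35 over the alternatives). On equal sums it did not pass (−0.11, adjusted p = 0.26), and on FPKM it passed among leave-outs only without unstretched control 3, stretched control 3 or stretched Wnt5a siRNA 1.

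The interaction sets the stretch response under one siRNA against that under the other. On FPKM 0 of 72 genes were higher and 1 lower, against 11.7% and 12.1% of all tested genes, and on equal sums none were called by limma, against 15.3% and 7.75%. At an unadjusted p under 0.05 there were 6 genes on FPKM and 1 on equal sums. Rpl38 was the gene called. It went from 1066, 1152 and 1106 to 1769.9, 1630.1 and 2041 FPKM with control siRNA and from 1482, 1459 and 1455 to 1969, 1790.4 and 1729 with Wnt5a siRNA. The stretched groups thus overlap and the unstretched groups do not. The difference of the changes was −0.39 ± 0.12 (interval −0.66 to −0.12, adjusted p = 0.041 by limma, 0.015 to 0.13 over the alternatives). On equal sums it was −0.28 (adjusted p = 0.13), and it did not pass with the replicate block, with no filter or without 9 of the libraries taken singly, among them stretched control 1 and each unstretched library. The median over the 72 genes was −0.13 on FPKM and −0.03 on equal sums. Without stretched control 3 it was −0.06 and 0.07, so that its sign on equal sums rests on that library. The intervals of the other named genes were wide. For Rps23 it was −0.82 to −0.01 on FPKM and −0.74 to 0.11 on equal sums.

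**Figure D4:**
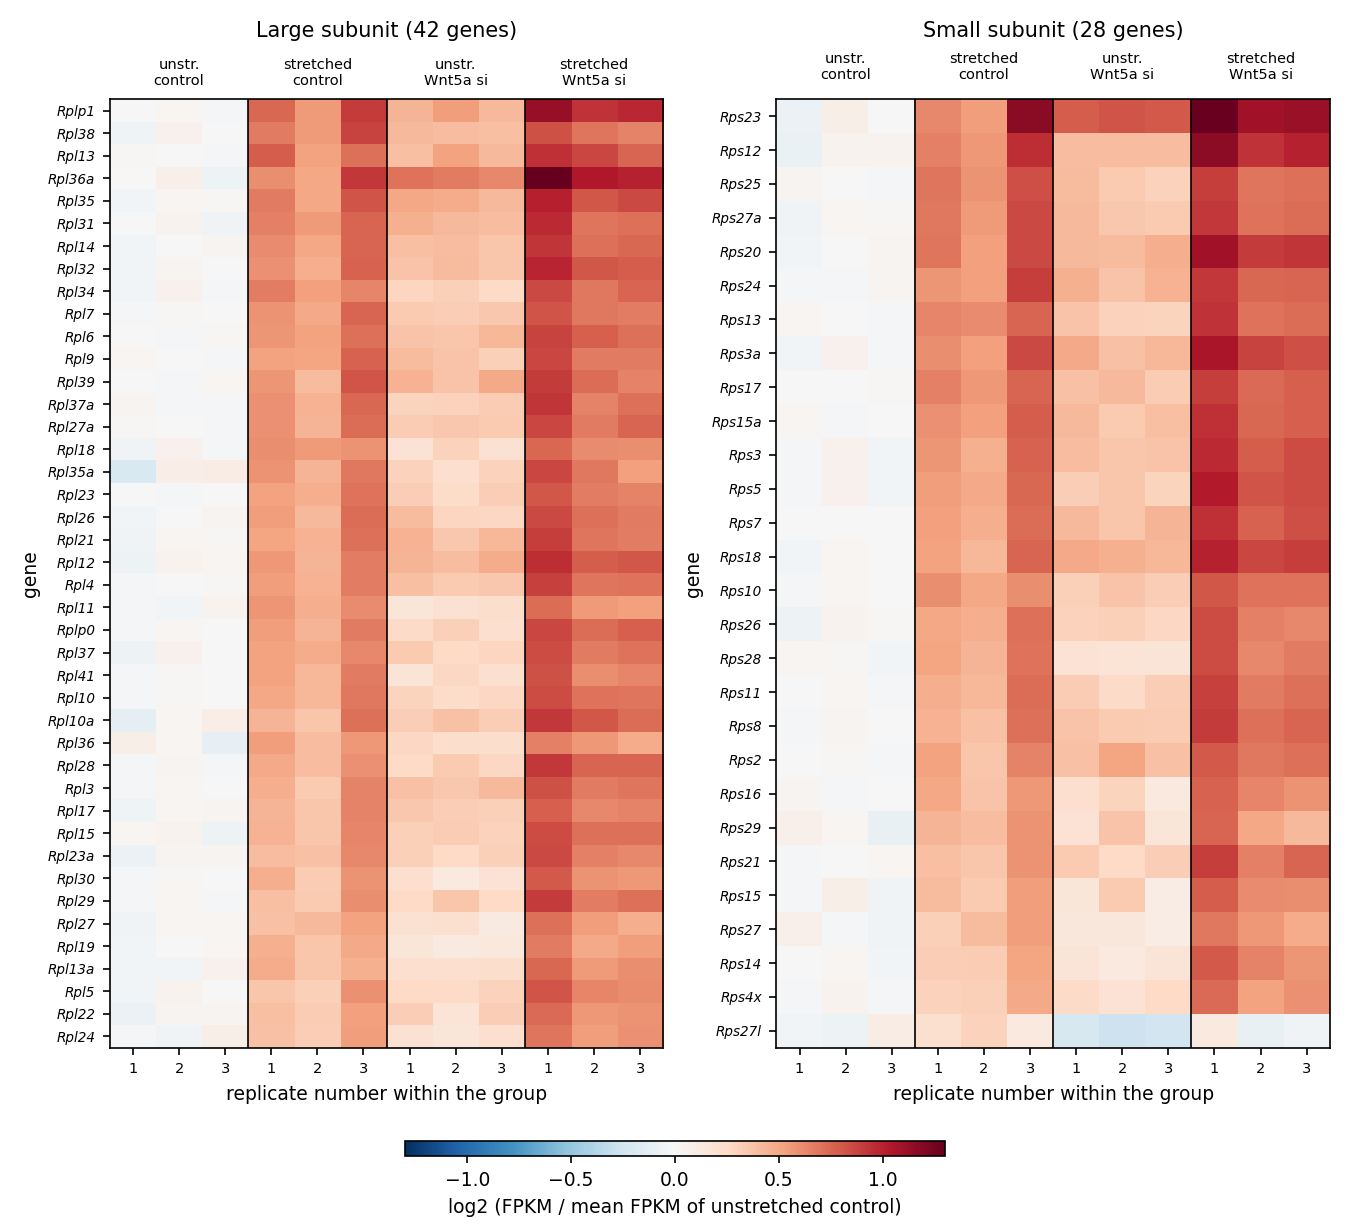
Log2 ratio of each library's FPKM to the mean of the unstretched control for 42 large (left) and 28 small subunit genes (right), without Rpl39l and 1 gene not reported here. Columns are libraries by group and replicate number, rows are genes ordered by the mean ratio in the stretched control, and red is higher. Stretched control 3 and stretched Wnt5a siRNA 1 are the darkest columns of their groups in most rows, and Rps27l is the row with blue in the unstretched Wnt5a siRNA libraries.

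Across the 71 genes other than Rpl39l the changes were narrow in spread. Relative to the unstretched control mean, the median ratio was 1.44, 1.36 and 1.63 in the stretched control libraries, with quartiles of 1.38 to 1.52 in the first of them. It was 1.26, 1.26 and 1.25 in the unstretched Wnt5a siRNA and 1.83, 1.62 and 1.64 in the stretched Wnt5a siRNA libraries. The SD of the log2 changes between genes was 0.10 for stretch with control siRNA, 0.07 for stretch with Wnt5a siRNA, 0.13 for Wnt5a siRNA without stretch and 0.10 with it, on FPKM. The median SE of a single gene's change was 0.08. This SE includes shifts of whole libraries that most of these genes shared, so it does not measure the error in the spread between genes. Level and change were hardly related over these genes, with Pearson's r across genes between −0.11 and 0.14 in the 5 comparisons on FPKM. Genes are not independent replicates, and these r carry no test.

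Median changes were close between genes with and without a tract exactly at the annotated start. Among tested genes with a window, the 24 with a tract exactly at the start had medians of 0.57, 0.45, 0.30 and 0.20 on FPKM for stretch with control siRNA, stretch with Wnt5a siRNA, and Wnt5a siRNA without and with stretch. The 33 without a tract exactly there had medians of 0.56, 0.41, 0.33 and 0.19. These 33 include Rps23, Rpl36a and Rps4x, whose tracts began shortly before the start, so they are not genes without any tract. Of the 210 other tested genes with a tract exactly at the start 23.8% were called higher with stretch in control cells, against 27.1% of 7776 without. Rplp1 and Rps27, whose starts are printed above, both have the tract and lay near opposite ends of the changes with stretch in control cells, at 0.74 and 0.42. This split was chosen after seeing the data.

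Of the ribosomal proteins that the symbol rule missed, 6 were tested, Rpsa, Fau and Gnb2l1 (Rack1) among them. On FPKM all 6 were called higher with stretch in control cells, 5 with stretch under Wnt5a siRNA, 5 for the siRNA without stretch and 3 with it, and on equal sums 5, 4, 5 and 4, with 0 lower in these comparisons on either scale. Rpsa, a small subunit protein also known as the laminin receptor, had 688, 702 and 716 FPKM in unstretched control libraries, 1040.2, 979 and 1403 in the stretched control, 1189, 1234 and 1168 in the unstretched Wnt5a siRNA and 1695, 1526 and 1541 in the stretched Wnt5a siRNA libraries. Like Rps23 and Rpl36a, it changed more with the siRNA without stretch (0.77 ± 0.11, adjusted p = 9.4e-04) than most ribosomal protein genes, and stretched control 3 was the highest of its group. Of 24 tested mRNAs of other proteins known to carry a 5′TOP tract, such as elongation factors, 21 were higher and 1 lower with stretch in control cells on FPKM. The counts were 17 and 0 for stretch with Wnt5a siRNA, 16 and 0 for the siRNA without and 10 and 0 with stretch. Of all genes 27.5%, 8.44%, 14.6% and 13.2% were higher in the same order. Eef1b2, an exchange factor of elongation factor 1A, rose by 0.84 ± 0.08 with stretch in control cells and by 0.52 ± 0.08 under Wnt5a siRNA (limma adjusted p = 4.7e-06 and 0.0012). On equal sums the counts were 12 and 2, 6 and 0, 16 and 0, and 17 and 0, beside 13.8%, 4.77%, 14.8% and 20.8% of all genes higher and 42.7%, 16.9%, 13.3% and 7.71% lower. This list shares genes with the one before, Rpsa, Fau and Gnb2l1 among them, and Npm1 with the next.

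Factors of ribosome assembly and rRNA synthesis were higher with stretch in control cells, as ribosomal protein genes were, and lower with Wnt5a siRNA under stretch. Of 64 tested, 57 were higher and 0 lower with stretch in control cells on FPKM, against 27.5% and 26.8% of all genes, and on equal sums 42 and 1, against 13.8% and 42.7%. With Wnt5a siRNA 4 were higher with stretch and 0 lower on FPKM, against 8.44% and 7.59% of all genes, and 0 and 1 on equal sums, against 4.77% and 16.9%. Without stretched control 3, which enters through the spread, these counts were 11 and 0, and 3 and 2, while 12.6% and 7.04% of all genes were higher. Under stretch 38 were lower with the siRNA and 0 higher on FPKM, against 14.2% of all genes lower, and 22 and 0 on equal sums, against 7.71%. The interaction was called lower in 41 of 64 on FPKM and in 33 on equal sums, against 12.1% and 7.75% of all genes. Without stretched control 3 it was called lower in 52 and 43, against 18.1% and 11.3%. Of the 72 ribosomal protein genes 1 and 0 were called lower with all libraries. Gnl3 (nucleostemin), a nucleolar GTPase, was at 29.2, 28.3 and 26.6 FPKM with control siRNA alone and at 76.7, 73.8 and 60.2 after added stretch. With Wnt5a siRNA it was at 38.9, 34.4 and 34.9 and then at 47.6, 51.4 and 41.9. Stretched control libraries were thus above all stretched Wnt5a siRNA libraries (−0.57 ± 0.10, adjusted p = 0.0034), and the interaction was −0.92 ± 0.14 (adjusted p = 0.0020, both by limma). Nop56, of the box C/D RNA particles that methylate rRNA, behaved alike, with 0.97 ± 0.08 for stretch in control cells, 0.10 ± 0.08 under Wnt5a siRNA and −0.87 ± 0.12 for the interaction. Ddx21, a nucleolar helicase, had an interaction of −0.82 ± 0.11 (adjusted p = 0.0014 for both). For the siRNA without stretch 21 factors were higher and 1 lower on FPKM, against 14.6% and 13.9% of all genes.

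Of 12 tested regulators of ribosome synthesis, 5 were higher and 4 lower with stretch in control cells on FPKM, and 1 and 5 on equal sums. With so few genes these counts are near the background of 27.5% and 26.8%, and of 13.8% and 42.7%. Myc, a transcription factor that drives ribosome synthesis, was at 10.4, 9.04 and 9.72 FPKM in control cells, which with stretch became 36.9, 36.7 and 15.3. Replicate 3 was again apart, nearer to the 16.04, 16.08 and 11.99 of the stretched Wnt5a siRNA libraries (log2 change with stretch 1.42 ± 0.25, adjusted p = 5.0e-04 by limma, and for the siRNA under stretch −0.87 ± 0.25, adjusted p = 0.025). Maf1, a repressor of RNA polymerase III, was lower with stretch in control cells (−0.46 ± 0.10) and with the siRNA without stretch (−0.42 ± 0.10), and Tsc2, an inhibitor of mTORC1, was lower with stretch in control cells (−0.38 ± 0.07). Mtor was higher with stretch in control cells (0.30 ± 0.10), which did not pass on equal sums, and lower with the siRNA under stretch (−0.49 ± 0.10).

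The summed FPKM of fibroblast markers was higher in the groups where the ribosomal protein share was higher. Single fibroblast markers and other marker lists were not always so. The sum of 10 fibroblast markers was 3464, 3970 and 3628 FPKM in the unstretched control, 4799, 4841 and 8308 in the stretched control, 5211, 5347 and 5497 in the unstretched Wnt5a siRNA and 9101, 8781 and 9401 in the stretched Wnt5a siRNA libraries. Stretched control 3 was the highest of its group here as it was for the ribosomal protein genes. Of 9 tested markers 6 were higher and 0 lower with stretch in control cells, 7 and 1 with stretch under Wnt5a siRNA, 3 and 1 with the siRNA alone and 6 and 0 with the siRNA under stretch, on FPKM. Of all genes 27.5% and 26.8%, 8.44% and 7.59%, 14.6% and 13.9%, and 13.2% and 14.2% were called in these comparisons. Col1a2 was listed at 0 in all libraries, while Col1a1 and Col3a1, the other collagen chains of fibroblasts, were at 1578 to 3521 and 1093 to 3412 FPKM. The sum of 7 cardiomyocyte markers was 15136 to 17717 FPKM in the unstretched control, 9764 to 16089 in the stretched control, with replicate 3 lowest, 10777 to 11543 in the unstretched Wnt5a siRNA and 9802 to 11578 in the Wnt5a siRNA libraries under stretch. None of these 7 was at 0 in all libraries. On FPKM 1 of the 7 was called higher and 4 lower with stretch in control cells, and 0 and 2 with stretch under Wnt5a siRNA. With the siRNA alone 0 and 4 were called, and 0 and 1 with it under stretch, beside the shares of all genes given above. The last count rests on stretched control 3. Without that library 0 were called higher and 5 lower on FPKM, against 21.8% and 22.6% of all genes. On equal sums 0 were lower with it, against 7.71% of all genes, and 5 without it, against 12.7%. The sum of 8 macrophage and leukocyte markers was 130.2 to 164 FPKM in the unstretched control, 251.4 to 409.5 in the stretched control, 118 to 127 in the unstretched Wnt5a siRNA and 292 to 335 in the Wnt5a siRNA libraries under stretch. With the siRNA alone 0 of these 8 were called higher and 5 lower, while 57 ribosomal protein genes were called higher. The sum of 6 endothelial markers was 7.14 to 29.1 FPKM outside the stretched Wnt5a siRNA group and 36.8 to 64.9 in it. Of 6 smooth muscle and pericyte markers 0 were called higher and 3 lower with stretch in control cells, 2 and 3 with stretch under Wnt5a siRNA, 0 and 0 with the siRNA alone and 2 and 1 with it under stretch, on FPKM. Erythroid markers summed to at most 8.58 FPKM in any library. In bulk RNA, more cells of a type and more RNA per cell cannot be told apart, and the part of these cell types in the results was not tested.

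**Figure D5:**
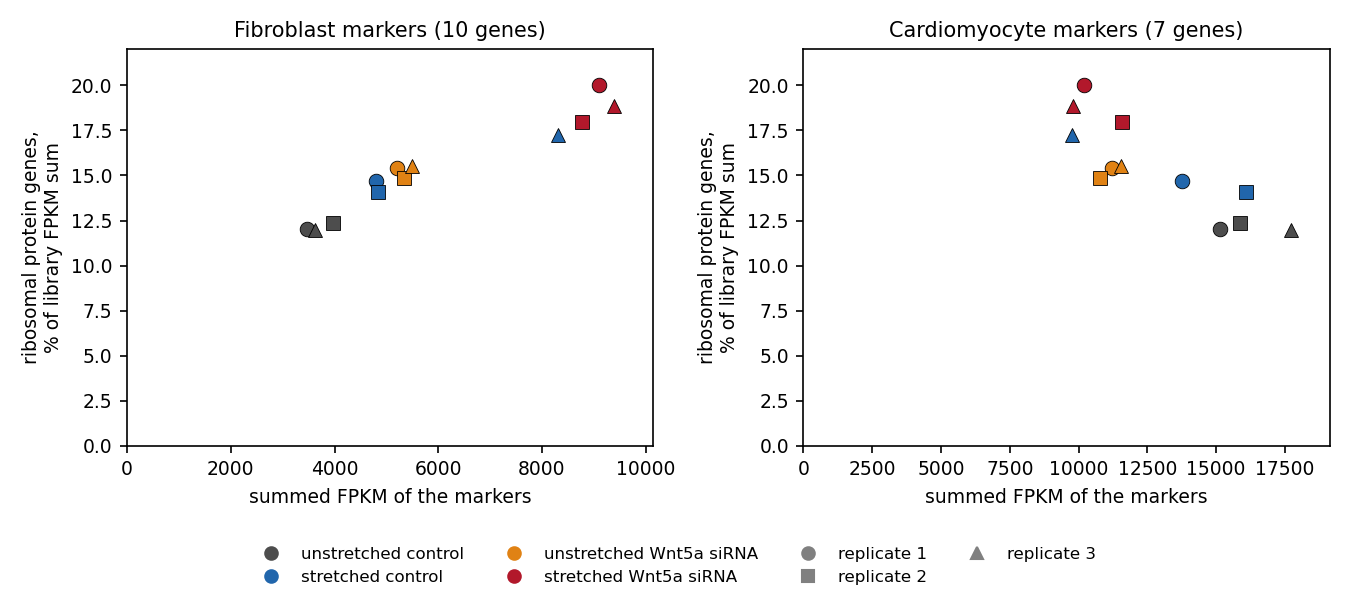
Share of the 79 ribosomal protein genes in each library's FPKM sum (vertical axis, %) against the summed FPKM of 10 fibroblast markers (left) and 7 cardiomyocyte markers (right). Each symbol is a library, coloured by group and shaped by replicate number. Stretched control 3, at 17.3%, lies beside the stretched Wnt5a siRNA libraries in both panels, away from stretched control 1 and 2 at 14.7% and 14.1%.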

How the data were processed

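The data were 12 mRNA libraries of cultured rat cardiomyocytes, 3 in each of 4 groups. A miRNeasy kit gave total RNA and a stranded TruSeq kit the mRNA libraries, per the labels' protocols. TopHat2 2.1.1, Bowtie2, Cuffdiff 2.2.1 and the build rn6 are named per the submitters' processing notes. FPKM per gene symbol is what the authors deposited. The sources used here do not give the annotation, the scaling between libraries, the strand setting or the treatment of reads with several matches. FPKM hold no depth. What 1 fragment was worth, judged from 1523 low genes, differed by a factor of up to 1.20 between libraries, and no reads were recovered.

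The 10518 genes that reached FPKM 1 in 3 or more libraries were tested on log2(FPKM + 1), which understates changes of low genes. All 12 libraries entered 1 model with a mean per group (8 residual degrees of freedom) with limma 3.58.1 in R 4.3.3, with eBayes and a trend, 2-sided, and p-values were adjusted by Benjamini and Hochberg over all tested genes of a comparison. The fit was repeated with each library scaled to the mean library sum of 629704 FPKM. The fit was tested on simulated data. The members and lists were chosen with earlier results of these data known. Genes named are 14 members picked for their roles, the 5 largest and 5 smallest changes with stretch in control cells, the 5 most abundant, up to 5 with the smallest adjusted p in the comparisons of the siRNA and in the interaction, and up to 3 called genes of each other list, of which fewer are given. Some genes that the rule names are not reported here. Rps9, Rpl7a, Rpl8, Rps19, Rpl29 and Rpl31, the fibroblast collagens, Postn, Dcn, Thy1 and Npm1 are named outside this rule, after their values were seen.

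Deviations of libraries with the same number correlated at 0.18, 0.24 and 0.14 for stretch with Wnt5a siRNA. The correlations were 0.16, 0.06 and 0.19 for Wnt5a siRNA without stretch and 0.22, 0.09 and 0.23 with stretch. For stretch with control siRNA they were 0.25, 0.06 and −0.02. The fit with the replicate number as a block is given beside the results of stretch with Wnt5a siRNA where it changes a call. Its FPKM counts for the other comparisons are given at the end, since a pairing of replicates is possible there too. Alternatives tried were the replicate block, no filter, a pseudocount of 0.1, quantile normalization, median ratio scaling, a filter at FPKM 5, a fit with only the libraries compared, eBayes with no trend, sums over genes outside the list, and leaving out each library. Starts are from RefSeq (GRCr8), where 78 of the 79 symbols were current and 1 a synonym. A description of genes with short proteins was planned, since FPKM of short transcripts depend on fragment length, and was not made.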

Additional observations from a re-analysis of the deposited data

Results flagged for a closer look

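The change of Rpl38 with stretch was smaller under Wnt5a siRNA than under control siRNA by −0.39 on the log2 scale of FPKM (adjusted p = 0.041 by limma's interaction test, 0.015 to 0.13 over the alternatives). It was the only one of the 72 tested ribosomal protein genes with a called interaction on FPKM, and none was called on equal library sums.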

How the results depend on the processing

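Counts are of the 72 genes. Quantile normalization gave 43 higher for stretch with control siRNA, 19 for stretch with Wnt5a siRNA and 41 for Wnt5a siRNA with stretch, with 0 lower there and 3 lower for the interaction. For stretch with control siRNA it gave a log2 change of -0.030 for Rps27, and equal sums gave -0.011 for Rps27l, both reversed; the cause was not tested. With no filter Wnt5a siRNA with stretch had 13 higher and 0 lower, the interaction 0 lower, and stretch with control siRNA on equal sums 1 lower. With only the libraries compared, which leaves fewer samples, Wnt5a siRNA with stretch had 0 higher and 0 lower on FPKM and 11 higher on equal sums. The replicate block left 0 lower for Wnt5a siRNA with stretch and 0 for the interaction, and 71, 67, 56 and 20 higher in the 4 other comparisons on FPKM, in the order of the report. Without a trend Wnt5a siRNA with stretch had 0 lower. With sums over other genes Wnt5a siRNA without stretch had 0 lower, and as a share of those sums the ratios were 1.32, 1.30, 1.30 and 1.29 in place of 1.26, 1.24, 1.26 and 1.23.

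Leaving out each library gave 70 to 71 and 57 to 71 higher for stretch with control and Wnt5a siRNA, 39 to 63 higher and 0 to 1 lower for Wnt5a siRNA without stretch, 2 to 56 and 0 to 1 with stretch, and 0 to 5 lower for the interaction, on FPKM. On equal sums higher counts were 50 to 67, 13 to 69, 37 to 68 (37 without unstretched control 3) and 24 to 70 (24, 34, 30 and 29 without stretched control 1 and 2 and stretched Wnt5a siRNA 1 and 3), with 0 to 1 lower for Wnt5a siRNA without stretch and 0 to 1 each way for the interaction. Of the results for single named genes, 2624 kept their direction and side of the threshold, 235 lost the call, 46 gained it and 2 reversed. FPKM hold no counts, so that precision rests on 3 libraries per group alone.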
